A study of Mus musculus with 6 samples.

Results

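The genes examined were those of motile cilia and of intraflagellar transport (IFT), 47 of 18193 genes measured in fetal mouse lung. They were the genes whose annotated symbol begins with Dnah, Dnai, Dnaaf, Rsph, Ift or Tekt followed by a digit, together with Foxj1, Rfx2, Rfx3, Mcidas, Spag6, Spag16, Spag17 and Hydin. A gene with several probe sets was represented by the one with the highest mean over the 6 lungs. Of the 47 genes, 30 encode parts or assembly factors of the motile axoneme, 14 are IFT subunits and 3 are transcription factors. Mcidas and symbols beginning with Dnai and a digit had no probe set under those names in the annotation used. No filter on low values was applied, so all 47 were tested.

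The lungs came from mouse embryos at stage E16.5 on a mixed strain background, 3 homozygous for loss of Hopx (Hopx -/-, called Hopx-null) and 3 with both copies intact (Hopx +/+, called wild-type), given as biological replicates. RNA was taken from whole microdissected lung and hybridised to 1-colour Affymetrix arrays, 1 array per lung, and all values are on the log2 scale. The sources used here give neither the kind of Hopx allele nor the litters and number of embryos behind a sample. In such bulk tissue, fewer cells of a type and less RNA per cell cannot be told apart.

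Motile cilia beat on the multiciliated cells of the airway lining and move mucus along it. Their axoneme carries dynein arms, the motors that slide the microtubules, and radial spokes and a central apparatus that coordinate the stroke. Foxj1 switches on most of the genes for this machinery, with RFX factors acting beside it, and multiciliated cells appear in the airways late in gestation. IFT is the two-way transport of cargo along every kind of cilium, including the single non-motile primary cilium that most lung cells bear, so IFT genes are active in many more cells than axonemal motor genes.

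RFX factors bind the X-box, an imperfect palindrome found near the start of many ciliary genes, and the promoter stretches below show how such letters recur among genes of different roles. RefSeq promoter sequence of build GRCm38.p6, from 250 bases before to 50 bases after the annotated start, was at hand for 40 of the 47 genes, as 44 promoters. An X-box form made of GTTNCC followed directly by ATGG, read on both strands, was in 0 of the 44, against 1.18% of all 32851 promoters. The forkhead letters GTAAACA were in 2 of 44 (Dnah17 and Tekt3), 4.55%, against 3.65% of all. After these counts were seen, 7 other or altered forms were searched. A form that spans both arms of the palindrome (GTTNCC, any 3 bases, G, any 2 bases, then AC) was in 9 of 44 promoters, 20.5%, against 2.22% of all promoters and 2.73% of those of genes on the array. The matches were in Dnaaf2, Dnaaf5, Dnaaf6, Hydin, Spag16, Tekt1 and Tekt4 among the axonemal genes and in Ift22 and Ift57. One arm alone, GTTNCC, which is contained in the longer form, was in 79.5% of member promoters and 45.3% of all. With G as its open letter, GTTGCC, the arm was in 43.2% and 12.5%, and with A, GTTACC, in 20.5% and 7.21%. An arm with altered letters, GGTNCC, was in 43.2% of member promoters and 44.2% of all. Mean GC content was 55.6% in member promoters and 53.8% in all. A match describes letters and was not tested as a binding site.

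Each stretch holds 1 match, in capitals, with 15 bases on either side, on the strand of its gene, and the set was chosen to show 5 axonemal genes and 1 IFT gene. Hydin lies at chr8:110266941-110266984 on the + strand, with the match starting at position -21 relative to the gene's start. Spag16 lies at chr1:69826852-69826895 on the + strand, with the match at -103. Tekt1 lies at chr11:72361869-72361912 on the - strand, with the match at -15. Dnaaf2 lies at chr12:69198418-69198461 on the - strand, with the match at -17. Dnaaf5 lies at chr5:139150202-139150245 on the + strand, with the match at -18. Ift57 lies at chr16:49699192-49699235 on the + strand, with the match at -87. In Hydin and Dnaaf2 the match reads on the opposite strand.
Hydin: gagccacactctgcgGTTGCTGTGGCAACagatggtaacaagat
Spag16: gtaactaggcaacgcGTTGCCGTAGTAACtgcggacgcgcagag
Tekt1: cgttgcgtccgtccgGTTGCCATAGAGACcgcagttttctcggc
Dnaaf2: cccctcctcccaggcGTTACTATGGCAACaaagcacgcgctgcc
Dnaaf5: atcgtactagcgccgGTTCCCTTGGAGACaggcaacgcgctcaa
Ift57: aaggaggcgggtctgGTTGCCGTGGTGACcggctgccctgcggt

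Array quality and labels were checked before the genes were compared. Correlations between arrays lay between 0.989 and 0.995. Hopx read 4.59, 4.59 and 4.96 in Hopx-null lungs, against 10.96, 10.59 and 10.41 in wild-type lungs at its s_at probe set. Its a_at probe set read 10.64, 10.35 and 10.47 in Hopx-null lungs, against 12.50, 12.44 and 12.26 in wild-type lungs. These 2, out of 45037 probe sets, made up all that passed limma with Benjamini-Hochberg adjustment, 0.00444% of those tested. Sftpc, the surfactant gene of the distal lung epithelium, read 13.7 to 13.8 over all 6 lungs. Of 7 type II alveolar and distal tip markers, Sftpc among them, 6 had higher means in Hopx-null lungs (median difference 0.10), Sftpb and Sftpa1 without overlap. Of 7 type I alveolar markers, 5 had higher means (median difference 0.14), Ager without overlap. None of these markers passed limma (Benjamini-Hochberg). Of all genes, 52.2% had higher means, and 6.21% were higher without overlap. Nkx2-1, the factor that specifies lung epithelium, read 7.62, 7.38 and 7.71 in Hopx-null lungs, against 7.77, 7.81 and 7.82 in wild-type lungs. All 5 genes of the lung epithelial identity list had lower means in Hopx-null lungs (median difference -0.19, 0 passing limma). Nkx2-1 and Foxa1 were lower without overlap, against 4.31% of all genes. Lungs of the 2 groups differed in sex-linked signal: the Y-linked gene Eif2s3y read 2.89 to 3.05 in all 3 Hopx-null lungs, against 11.7 and 11.6 in wild-type replicates 2 and 3 and 3.13 in wild-type replicate 1. Sex is thus nearly confounded with genotype, and the difference from wild-type replicate 1 alone, the wild-type lung that also lacks this signal, is given beside each role where it departs from the difference over all lungs. That value rests on a single wild-type lung and has no test.

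Loss of Hopx was not accompanied by a detectable change of the cilia and IFT genes. None of the 47 passed limma (Benjamini-Hochberg over 45037 probe sets), where the smallest adjusted p was 0.878. At an unadjusted p under 0.05 in limma there were 2 of 47, Dnah8 and Dnah11, 4.26% of the members against 4.54% of all genes. The median log2 difference, Hopx-null minus wild-type, was -0.00041 over the members and 0.01 over all genes, with 23 members above 0 and 24 below. The groups did not overlap for 4 members, all higher in Hopx-null lungs (Dnah8, Dnah11, Ift122 and Ift140), 8.51% against 6.21% of all genes. In the other direction there were 0 members, against 4.31% of all genes. These counts are of the brightest probe sets. At dimmer probe sets of Dnah1 and Rfx2, all Hopx-null lungs read below all wild-type lungs. Member differences ranged from -0.32 for Spag6 to 0.42 for Dnah8. At the brightest probe sets, the 95% intervals of all 47 lay within a doubling or halving (-0.91 to 0.81 on the log2 scale). A dimmer probe set of Spag16 had an interval of -1.20 to 0.15. The intervals take no account of sex. For Dnah17, Dnaaf6, Rsph6a and Spag17, with signal near background, they say little about expression.

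**Figure D1:**
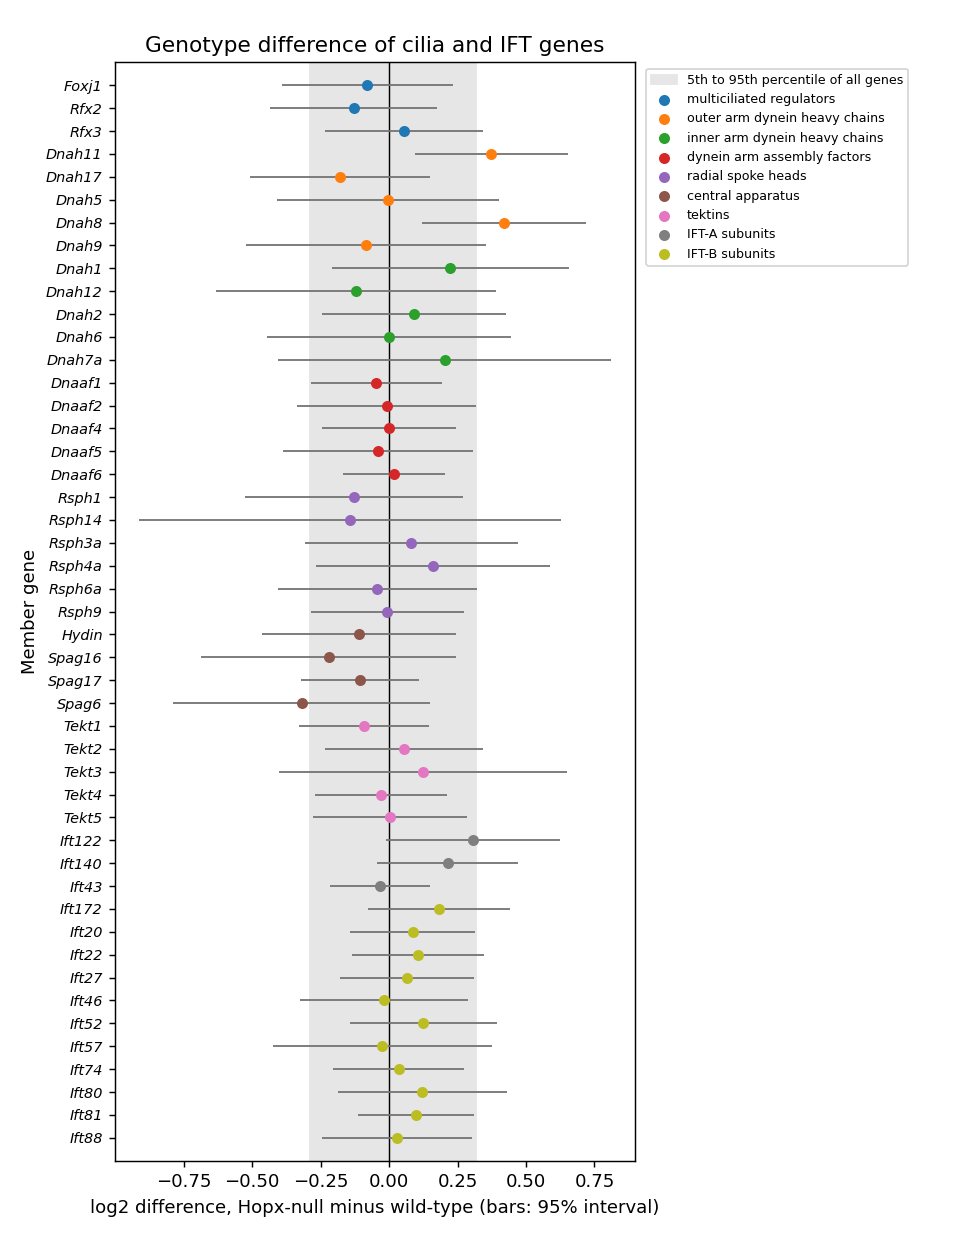
Log2 difference, Hopx-null minus wild-type, of each of the 47 members (horizontal axis), with the 95% interval from limma as bars and colours for the role of the gene. The shaded band spans the 5th to 95th percentile of all genes, -0.29 to 0.32, and all points but those of Spag6, Dnah8 and Dnah11 lie inside it.

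The 3 transcription factors above the axonemal genes had overlapping groups at their brightest probe sets. Foxj1, the forkhead factor that drives motile ciliogenesis, had values of 6.66, 6.89 and 6.82 in Hopx-null lungs, against 6.72, 7.11 and 6.78 in wild-type lungs. The groups overlapped, with wild-type replicate 2 the highest, and the difference was -0.08 (95% interval -0.39 to 0.23), and 0.07 against wild-type replicate 1 alone. These values are close to the median of all probe sets, 6.69, so Foxj1 signal was weak in whole lung. Rfx3, an RFX factor needed for cilia, averaged 10.6 ± 0.14 in Hopx-null and 10.5 ± 0.16 in wild-type lungs (SD, n = 3 each). Rfx2, a second RFX factor, averaged 7.31 ± 0.16 in Hopx-null and 7.44 ± 0.16 in wild-type lungs (SD, n = 3 each) at its brightest probe set, with overlapping groups. There all 3 Hopx-null lungs, at 7.33, 7.46 and 7.14, read below wild-type replicate 1, at 7.58.

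The probe sets of Rfx2 differed from each other. At 2 of its 3 dimmer probe sets all Hopx-null lungs read below all wild-type lungs, 5.02, 5.02 and 4.60 against 5.19, 5.29 and 5.31 at the brighter of those 2. There the difference was -0.38 (SE 0.14, limma unadjusted p = 0.026, Benjamini-Hochberg adjusted p = 0.878). Over all 74 probe sets of the members, 5 had an unadjusted p under 0.05 in limma, 6.76% against 4.77% of all probe sets.

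Outer arm dynein heavy chains, the force-producing motors of the beat, held both members with the lowest p at the brightest probe sets. Dnah11, an outer arm motor of airway cilia, read 9.16, 9.13 and 9.11 in Hopx-null lungs, against 8.61, 8.98 and 8.69 in wild-type lungs. The 3 Hopx-null lungs lay close together and above every wild-type lung, while wild-type lungs were spread more widely. The difference was 0.37 (SE 0.12), 1.3-fold (limma unadjusted p = 0.016, Benjamini-Hochberg adjusted p = 0.878).

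Dnah8, an outer arm heavy chain best known from sperm flagella, read 9.70, 9.34 and 9.44 in Hopx-null lungs, against 8.98, 9.22 and 9.01 in wild-type lungs. Here too the groups did not overlap, with Hopx-null replicate 1 the highest. The difference was 0.42 (SE 0.13), 1.34-fold (limma unadjusted p = 0.013, Benjamini-Hochberg adjusted p = 0.878). A second probe set of Dnah8, near the lower quartile of the arrays, gave 0.08 (SE 0.11). Against wild-type replicate 1 alone, Dnah11 differed by 0.53 and Dnah8 by 0.51.

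The other outer arm heavy chains had no such separation. Dnah5, the outer arm motor most often linked to immotile cilia in people, averaged 5.77 ± 0.21 in Hopx-null and 5.77 ± 0.27 in wild-type lungs (SD, n = 3 each). Dnah9, which sits in the distal part of the axoneme, read 7.76, 7.81 and 7.91 in Hopx-null lungs, against 7.48, 8.14 and 8.11 in wild-type lungs. Wild-type lungs held both its lowest and its highest values. Against wild-type replicate 1 alone, Dnah5 and Dnah9 differed by 0.31 and 0.34. Dnah17, a sperm heavy chain, lay under every array's lower quartile, at 3.10 to 3.23 in Hopx-null and 3.15 to 3.62 in wild-type lungs, where signal is close to background.

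Inner arm heavy chains, which shape the waveform, had a median difference of 0.09 over 5 genes, and their groups overlapped at the brightest probe sets. Dnah6 read 8.73, 8.91 and 8.96 in Hopx-null lungs, against 8.46, 8.98 and 9.16 in wild-type lungs, with equal group means of 8.87. Dnah2 averaged 8.14 ± 0.12 in Hopx-null and 8.05 ± 0.24 in wild-type lungs (SD, n = 3 each). Wild-type replicate 1 was the lowest of the 6 lungs for all 5 of these genes, Dnah1, Dnah2, Dnah6, Dnah7a and Dnah12, and against it alone they differed by 0.24 to 0.59.

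Dnah7a differed by 0.20 (SE 0.25) and is one of a group of near-identical copies that probes may not separate. Dnah1 gave opposite signs at its 2 probe sets, 0.22 (SE 0.18) at the brighter and -0.38 (SE 0.10, limma unadjusted p = 0.0068, Benjamini-Hochberg adjusted p = 0.878) at the dimmer, whose mean of 4.24 is at the lower quartile of the arrays. At that dimmer probe set all Hopx-null lungs, at 3.96 to 4.11, read below all wild-type lungs, at 4.32 to 4.56. Dnah12 read 7.04 to 7.21 in Hopx-null and 6.89 to 7.74 in wild-type lungs.

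Assembly factors, which build dynein arms in the cytoplasm before they enter the cilium, had 5 differences between -0.05 and 0.02 at their brightest probe sets, and between -0.21 and 0.16 against wild-type replicate 1 alone. Dnaaf1 averaged 7.80 ± 0.12 in Hopx-null and 7.85 ± 0.08 in wild-type lungs (SD, n = 3 each), and Dnaaf4 read 7.70, 7.77 and 7.83 in Hopx-null lungs, against 7.70, 7.93 and 7.66 in wild-type lungs. The values of each gene were interleaved between the groups. Dnaaf2 and Dnaaf5 differed by -0.01 and -0.04, and Dnaaf6 had signal near background, 2.58 to 2.67 over all 6 lungs. Dimmer probe sets gave 0.21 (SE 0.21) for Dnaaf1, 0.11 (SE 0.13) for Dnaaf4 and, near background, 0.13 (SE 0.10) for Dnaaf5.

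Radial spoke genes, whose products relay signals from the central apparatus to the dynein arms, were spread more among wild-type than among Hopx-null lungs. Rsph4a, a spoke head protein, read 7.60, 7.87 and 7.66 in Hopx-null lungs, against 7.27, 7.93 and 7.45 in wild-type lungs. Rsph1, also of the spoke head, read 7.28, 7.39 and 7.43 in Hopx-null lungs, against 7.12, 7.65 and 7.72 in wild-type lungs. In both, wild-type replicate 1 was the lowest lung and another wild-type lung the highest. Against wild-type replicate 1 alone, Rsph4a, Rsph1 and Rsph14 differed by 0.44, 0.25 and 0.60, and the other 3 spoke genes by -0.28 to 0.20.

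Rsph14 had the widest spread of any member, 6.37, 6.37 and 6.65 in Hopx-null lungs, against 5.87, 6.73 and 7.22 in wild-type lungs. Rsph9 averaged 7.88 ± 0.11 in Hopx-null and 7.89 ± 0.17 in wild-type lungs (SD, n = 3 each). Rsph3a, of the spoke stalk, differed by 0.08 (SE 0.16). It has a near-identical copy, Rsph3b, and the probe set annotated to both was left out. Rsph6a, known from sperm, lay at 3.77 to 3.90 in Hopx-null and 3.54 to 4.10 in wild-type lungs, below the lower quartile of the arrays.

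The 4 central apparatus genes had lower means in Hopx-null lungs at their brightest probe sets, with overlapping groups and signal below the median of the arrays. Spag6 read 4.24, 4.08 and 4.47 in Hopx-null lungs, against 4.47, 4.98 and 4.30 in wild-type lungs, and wild-type replicate 2 carried most of its difference of -0.32 (SE 0.20). Spag16 read 5.92, 6.18 and 5.91 in Hopx-null lungs, against 5.79, 6.49 and 6.38 in wild-type lungs, a difference of -0.22 (SE 0.20). Hydin, a large protein of the central pair, differed by -0.11 (SE 0.15), and Spag17 by -0.11 (SE 0.09) with signal below the lower quartile. Against wild-type replicate 1 alone, Spag16 and Hydin had the other sign, 0.21 and 0.18, while Spag6 and Spag17 differed by -0.21 and -0.05. Dimmer probe sets gave 0.06 (SE 0.14) for Hydin, 0.04 (SE 0.16) for Spag17 and -0.52 to 0.10 for the 3 of Spag16. None of the 4 had an unadjusted p under 0.05 in limma, and the smallest was 0.150.

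Tektins, filament proteins of the axonemal microtubules, differed by -0.09 to 0.12. Tekt1 averaged 8.14 ± 0.11 in Hopx-null and 8.23 ± 0.10 in wild-type lungs, and Tekt2 8.14 ± 0.12 in Hopx-null and 8.09 ± 0.18 in wild-type lungs (SD, n = 3 each). Tekt3 spread over 5.04 to 5.52 in Hopx-null and 4.83 to 5.57 in wild-type lungs. Tekt4 and Tekt5 differed by -0.03 and 0.00. Against wild-type replicate 1 alone, the tektins differed by -0.21 (Tekt1) to 0.29 (Tekt3).

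IFT genes were above the median of the arrays in all 14 cases. Of these, 11 had higher and 3 lower means in Hopx-null lungs, 78.6% higher against 54.9% of all genes above the median level, and the median difference was 0.09 against 0.02. None passed the test. The 2 retrograde complex (IFT-A) subunits Ift122 and Ift140 were the IFT genes whose groups did not overlap. Ift122 read 8.06, 8.16 and 8.46 in Hopx-null lungs, against 8.04, 7.95 and 7.78 in wild-type lungs. The gap between the nearest lungs of the 2 groups was small beside the spread within each, and the difference was 0.31 (SE 0.13, limma unadjusted p = 0.055, Benjamini-Hochberg adjusted p = 0.878).

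Ift140 read 10.73, 10.72 and 10.92 in Hopx-null lungs, against 10.58, 10.70 and 10.44 in wild-type lungs, a difference of 0.21 (SE 0.11). Hopx-null replicate 3 was the highest lung for both genes. The third IFT-A member, Ift43, was nearly constant, 11.2 ± 0.03 in both groups (SD, n = 3 each), with a difference of -0.03 (SE 0.08). A second probe set of Ift122 gave 0.11 (SE 0.10) with overlapping groups.

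The 11 anterograde complex (IFT-B) subunits differed by -0.02 to 0.18. Ift172 read 9.11, 9.09 and 9.31 in Hopx-null lungs, against 8.90, 9.14 and 8.93 in wild-type lungs, the largest IFT-B difference at 0.18 (SE 0.11). Ift80 was nearly identical in the 3 Hopx-null lungs at 10.22, 10.21 and 10.22, against 9.84, 10.30 and 10.15 in wild-type lungs. Ift57 was the most variable within Hopx-null lungs, 9.70, 9.17 and 9.21 against 9.45, 9.20 and 9.50 in wild-type lungs. Ift88, whose loss abolishes cilia in mice, averaged 8.43 ± 0.04 in Hopx-null and 8.40 ± 0.19 in wild-type lungs (SD, n = 3 each). Ift20, Ift22, Ift27, Ift46, Ift52, Ift74 and Ift81 differed by -0.02 to 0.12, with overlapping groups. Against wild-type replicate 1 alone, the IFT-B subunits differed by -0.09 (Ift57) to 0.38 (Ift80), with Ift88 at 0.24, and Ift122 and Ift140 by 0.19 and 0.21.

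**Figure D2:**
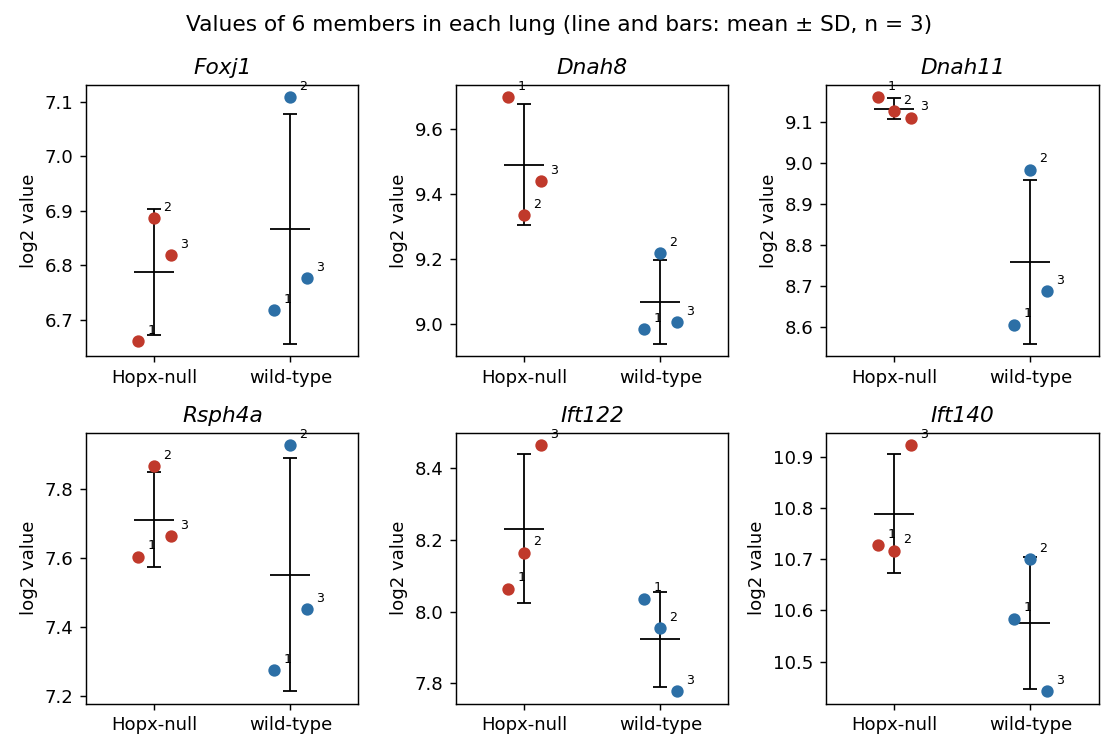
Log2 values of Foxj1, Dnah8, Dnah11, Rsph4a, Ift122 and Ift140 in each lung, Hopx-null left and wild-type right, with replicate numbers beside the points and the mean ± SD (n = 3) as line and bars. Vertical scales differ and do not start at 0. Dnah8, Dnah11, Ift122 and Ift140 do not overlap between groups, whereas in Foxj1 and Rsph4a the wild-type range reaches above and, for Rsph4a, below that of Hopx-null lungs.

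The axonemal genes varied more among wild-type than among Hopx-null lungs, and the wild-type lungs also differed in Y-linked signal. Among the 30 axonemal genes, 17 had their lowest value of all 6 lungs in wild-type replicate 1, 56.7% against 15.4% of all genes. The highest value lay in wild-type replicate 2 for 9 of them, in wild-type replicate 3 for 8 and in Hopx-null replicate 3 for 7, where 13.6%, 21.3% and 22.7% of all genes were highest. Averaged over the 17 axonemal genes above the median level, the deviation from each gene's mean was -0.03, 0.02 and 0.08 in Hopx-null replicates 1 to 3, against -0.21, 0.10 and 0.04 in wild-type replicates 1 to 3. Wild-type replicate 1 thus stood below the other 5 lungs, and the wild-type SD of 0.165 was larger than the Hopx-null SD of 0.055. For all 30 axonemal genes the median SD was 0.128 in Hopx-null and 0.253 in wild-type lungs, against 0.127 in Hopx-null and 0.133 in wild-type lungs over all genes.

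In IFT genes wild-type replicate 1 was low as well, by less. Their mean deviation was 0.02, 0.02 and 0.09 in Hopx-null replicates 1 to 3, against -0.08, 0.03 and -0.09 in wild-type replicates 1 to 3, so wild-type replicate 3 was as low as wild-type replicate 1. Of the 14 IFT genes, 5 were lowest in wild-type replicate 1, 35.7% against 15.4% of all genes, and 4 in wild-type replicate 3, where 24.0% of all genes were lowest. Over pairs of 1 axonemal gene above the median level and 1 IFT gene, the median correlation of deviations from the genotype means across the 6 lungs was 0.235, against 0.193 among IFT genes and 0.352 among axonemal genes, as a description.

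**Figure D3:**
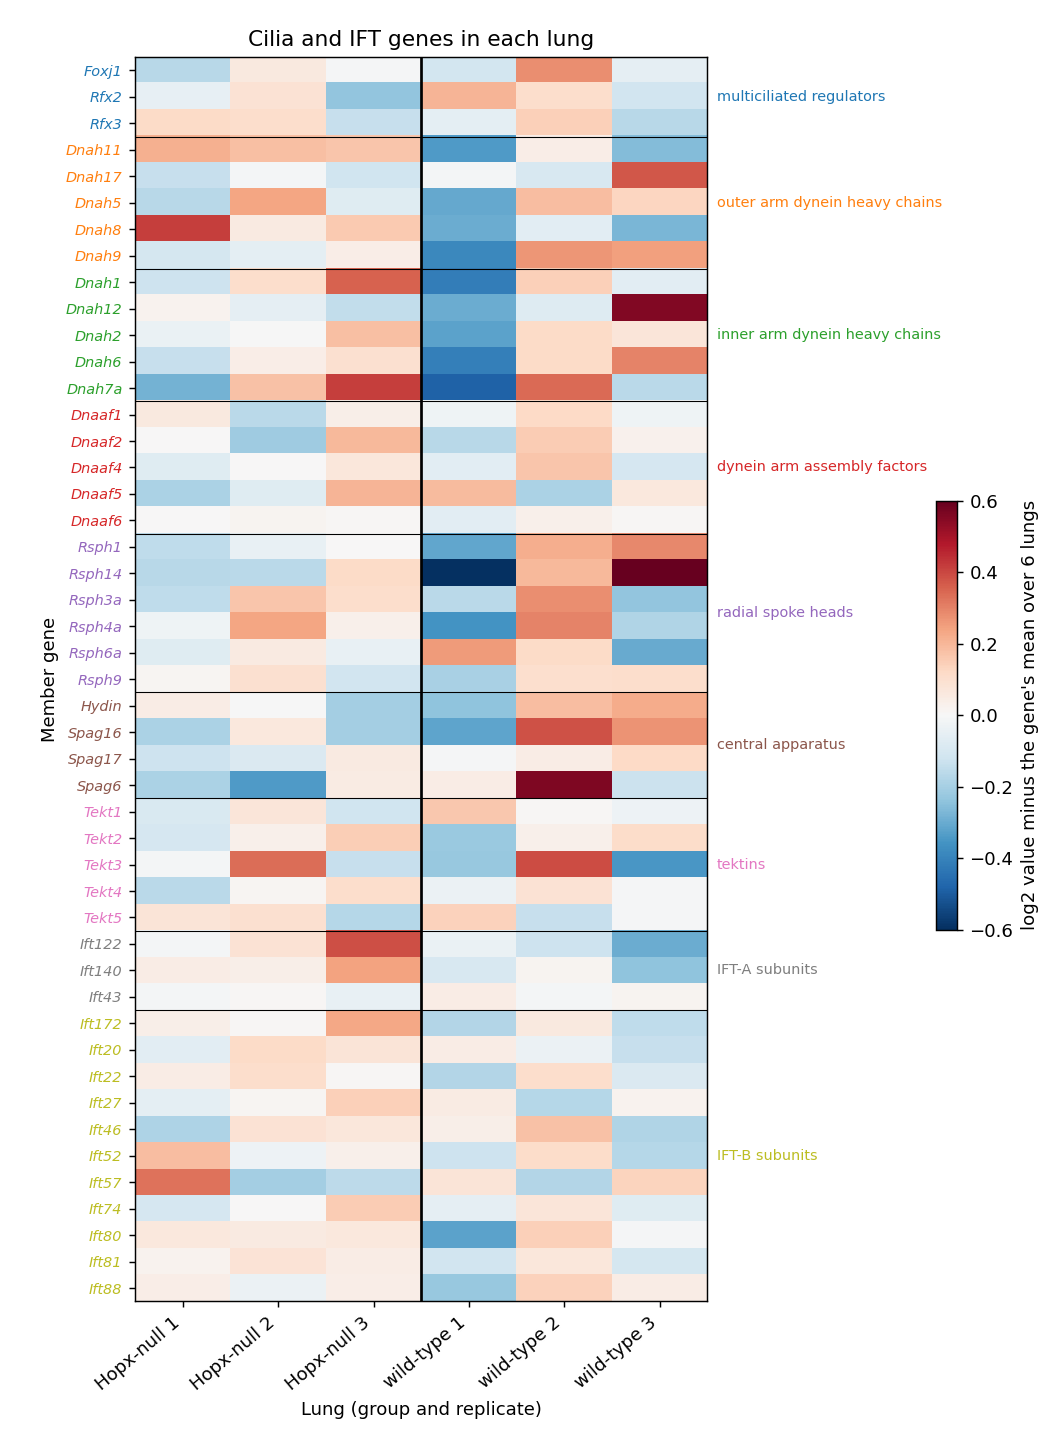
Deviation of each member from its mean over the 6 lungs on the log2 scale (colour, cut off at 0.6 in either direction), with Hopx-null lungs left of the line, wild-type lungs right of it, and genes grouped by role. The column of wild-type replicate 1 is blue for all 5 inner arm heavy chains and 4 of 5 outer arm heavy chains, and shows no common colour in the IFT-B rows.

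Other genes of multiciliated cells, a list of which 46 were measured, had the same lowest and highest lung. The list was lowest in wild-type replicate 1, with a mean deviation of -0.20, and highest in wild-type replicate 2, at 0.16, while Hopx-null lungs lay between -0.02 and 0.02. Of the 46 genes, 26 were lowest in wild-type replicate 1, 56.5% against 15.4% of all genes. None passed limma (Benjamini-Hochberg), 21 were higher and 25 lower in Hopx-null lungs, and the median difference was -0.01. The groups did not overlap for 3 dim genes, Ccdc103, Ccdc151 and Iqcg, all lower in Hopx-null lungs, against 4.31% of all genes. In the other direction there were 0, against 6.21% of all genes. Mycbpap, with a difference of -0.28 (SE 0.20), and Deup1, a factor of centriole amplification, with -0.21 (SE 0.18), differed most. Cdhr3, a cadherin of ciliated cells, read 8.86, 9.09 and 9.02 in Hopx-null lungs, against 8.30, 9.36 and 8.70 in wild-type lungs.

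Markers of other structures that run with the airways also differed between lungs. The mean level of 12 secretory airway markers was 10.7 to 11.1 in Hopx-null and 10.7 to 11.6 in wild-type lungs, and that of 15 cartilage markers 5.54 to 6.33 in Hopx-null and 5.48 to 7.47 in wild-type lungs. By mean deviation, the lowest lungs in both lists were wild-type replicate 1 and Hopx-null replicate 2. Their values were -0.384 and -0.416 for the secretory and -0.873 and -0.815 for the cartilage markers. For the axonemal genes above the median level, the same 2 lungs had mean deviations of -0.213 and 0.023. Of these markers, 10 of 12 secretory and 13 of 15 cartilage genes had lower means in Hopx-null lungs, where 52.2% of all genes had higher means. None passed limma (Benjamini-Hochberg). At an unadjusted p under 0.05 in limma there were 1 secretory gene, Sox2 (-0.77), and 3 cartilage genes, against 4.54% of all genes. Of these 3, Comp (-0.63) and Col11a2 (-0.43) were lower and Matn4 (0.44) was higher in Hopx-null lungs. The part of airway content, or of the lower lung epithelial identity genes, in the axonemal values was not tested.

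**Figure D4:**
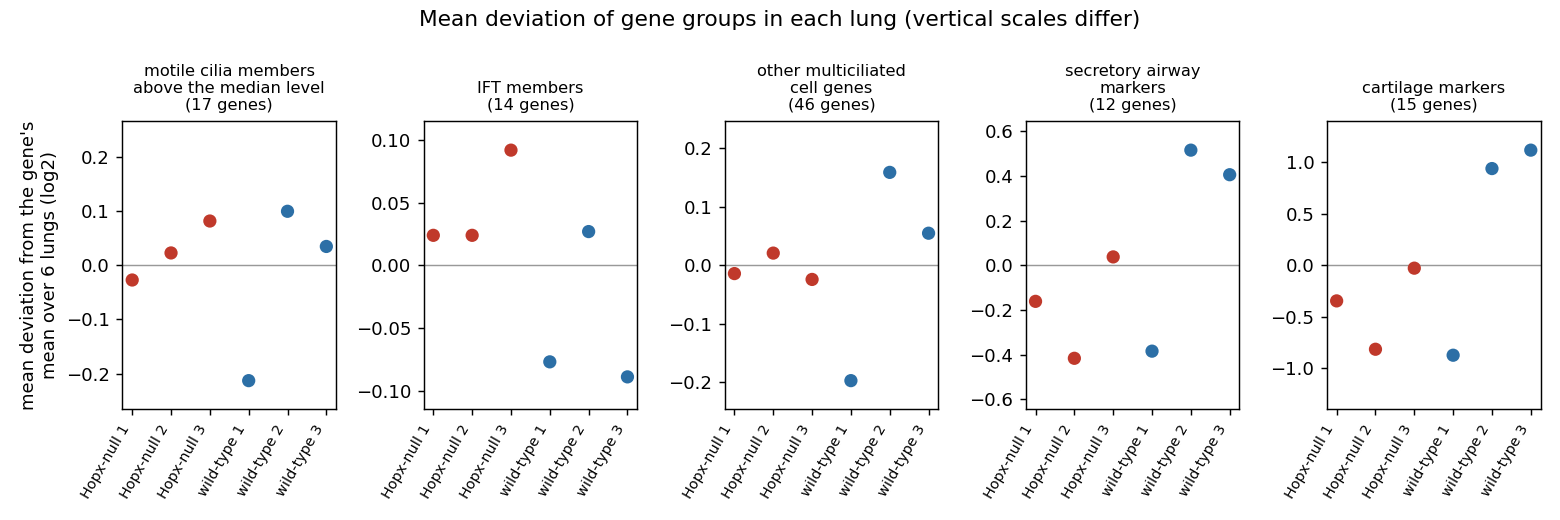
Mean deviation from each gene's mean over the 6 lungs (log2), for axonemal members above the median level, IFT members, other multiciliated cell genes, secretory airway markers and cartilage markers, Hopx-null lungs in red and wild-type lungs in blue. Vertical scales differ between panels. Medians of the secretory markers varied less than the means shown, from -0.09 to 0.19. Wild-type replicate 1 is lowest for the axonemal and the other multiciliated genes, at -0.21 and -0.20.

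Wild-type replicate 1 is also the wild-type lung without Y-linked signal. Set against it alone, the 3 Hopx-null lungs, likewise without Y-linked signal, had a median difference of 0.20 over the axonemal genes and 0.18 over the IFT genes. Of the 47 members, 34 were above 0, against 23 with all lungs, and 17 had changed sign. Over all genes the mean deviation was -0.017 in wild-type replicate 1 and 0.004, -0.015 and 0.023 in Hopx-null replicates 1 to 3. All 3 Hopx-null lungs read above wild-type replicate 1 for 63.3% of axonemal and 57.1% of IFT genes, against 26.7% of all genes. With a single wild-type lung in that comparison, the deviation of that lung and its genotype cannot be told apart. Without wild-type replicate 1, the median over the axonemal genes was -0.05 and over the IFT genes 0.06.

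Beyond the members, the remaining ciliary machinery gave no call in limma (Benjamini-Hochberg). Of 11 other IFT-A and IFT-B subunits, 5 were higher and 6 lower in Hopx-null lungs, where 52.2% of all genes were higher. Ttc30a2, a dim probe set of a gene with close copies, differed by 0.41 without overlap (SE 0.15, limma unadjusted p = 0.034, Benjamini-Hochberg adjusted p = 0.878). Ttc21b differed by 0.16 (SE 0.20). Of 10 motor subunits of IFT, 7 were higher, led by Kif3c at 0.27 (SE 0.12) and Kif17 at 0.20 (SE 0.15). Dync2li1 differed by 0.07 (SE 0.08) without overlap. Of 8 subunits of the BBSome, a cargo adaptor of cilia, 5 were higher, with Ttc8 at 0.20 (SE 0.21) and Bbs5 at -0.10 (SE 0.11).

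Of 18 genes of the transition zone, the gate at the base of the cilium, and related ciliopathy genes, 13 were higher in Hopx-null lungs. That is 72.2% against 52.2% of all genes, and the median difference was 0.08 against 0.01. Mks1, a transition zone protein, read 7.41, 7.27 and 7.52 in Hopx-null lungs, against 6.79, 7.09 and 7.19 in wild-type lungs. These groups did not overlap, with a difference of 0.38 (SE 0.13, limma unadjusted p = 0.025, Benjamini-Hochberg adjusted p = 0.878). Iqcb1 differed by -0.38 (SE 0.20) with overlap. Among 5 other RFX factors, 2 were higher and 3 lower, with Rfx8 at 0.09 (SE 0.10). Rfx4, on a probe set below the lower quartile of the arrays, differed by -0.24 without overlap (SE 0.10, limma unadjusted p = 0.042, Benjamini-Hochberg adjusted p = 0.878). In these lists Mks1, Ttc30a2 and Rfx4 had an unadjusted p under 0.05 in limma, against 4.54% of all genes. Without overlap, 6.21% of all genes were higher and 4.31% lower in Hopx-null lungs.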

How the data were processed

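The values were the authors' deposited log2 expression values per probe set. The submitters' processing notes name RMA (background correction, equalising of arrays and summary of probes) and Partek 6.6 without saying what each did. The log2 base was read from the range of the values, and the background option is not given in the sources used here. Equalised arrays hide a shift of most transcripts in 1 direction. Of 45101 probe sets, 64 controls were left out. In the platform annotation 34945 probe sets had 1 gene, 932 several and 9160 none. The comparison used lmFit and eBayes of limma 3.58.1 (R 4.3.3), and p-values were adjusted over 45037 probe sets by the Benjamini-Hochberg method at 0.05. The procedure was tested on simulated data with independent probe sets, equal spread in both groups and differences larger than any among the members. That test does not cover differences as small as those of the members. The labels call the 3 lungs of a group biological replicates without naming litters. The p-values set the difference between groups against the spread within them, which includes the sex difference among wild-type lungs. The number of arrays limits the precision.

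Members and lists were chosen with earlier results of these data known. Named genes were the regulators, the brightest and most different members of each role, members without overlap or with an unadjusted p under 0.05, and the 2 most different genes of each list. Cdhr3, other list genes without overlap, and marker genes were added beside results they touch. Alternatives covered normalization, dim probe sets, variance model, array weights, replicate number as a block, choice of probe set, Y-linked signal and each lung left out. The comparison within lungs lacking Y-linked signal was added after seeing the data.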

Additional observations from a re-analysis of the deposited data

How the results depend on the processing

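No member passed limma (eBayes, Benjamini-Hochberg) under the 14 alternatives with at least 2 lungs of each genotype behind the difference, where a member's smallest adjusted p was 0.577. With Y-linked signal as a covariate the median difference was 0.193 over all members, 0.215 over the axonemal and 0.18 over the IFT genes, and in the lungs without that signal 0.188, 0.204 and 0.176. Both rest on wild-type replicate 1 as the wild-type side, with no spread of its own, so the lack of a called member there says nothing. In these 2 settings 17 of 47 members changed sign. Leaving out 1 lung, the medians ranged from -0.00848 (wild-type replicate 1) to 0.064 (wild-type replicate 2) over all members, from -0.0517 to 0.0334 over the axonemal and from 0.0552 to 0.133 over the IFT genes. In limma 2 probe sets were called with all lungs, 12 when Hopx-null replicate 1 was left out, 23 when wild-type replicate 1 was, and 1 when any other lung was, with Y-linked signal as a covariate or in lungs lacking it. The replicate block left 1 call and no member, with a member's smallest adjusted p of 0.924. Deviations of same-numbered lungs had correlations of -0.096, -0.121 and 0.183. With 3 lungs per group and no comparison with differently numbered lungs, these values cannot decide whether the numbers pair the lungs. The cause of these moves was not tested. With the mean of its probe sets the Dnah8 difference was 0.248, against 0.42 at the brightest. Signal near background limits Dnah17, Dnaaf6, Rsph6a and Spag17, whose values say little about expression.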

Other observations

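Spag6l, the close copy of Spag6, read 8.33, 8.61 and 8.66 in Hopx-null lungs, against 8.19, 8.65 and 8.45 in wild-type lungs, a difference of 0.11 (SE 0.15), where Spag6 differed by -0.32. The dynein intermediate chain genes Dnaic1 and Dnaic2 differed by -0.31 (SE 0.17) and -0.03 (SE 0.17), with overlapping groups. The 9 members with the longer X-box letters in their promoter had a median difference of -0.03, and the 31 with a promoter but without them 0.03.

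By likeness to Foxj1 in deviations from the genotype mean over the 6 lungs, the closest of 9075 genes outside the members were Calml4, Elfn1, Gtf2h5, Ubxn10, Mcm6, Cdc23, Pigo, Ccnd2, Pkia and Prim1, with Pearson r from 0.980 to 0.999. With so few lungs and so many candidates, values this high are a description of these 6 arrays. Among the members, Rsph3a, Ift81 and Rsph4a came closest, at 0.968, 0.963 and 0.961, and Ift57 was the most opposed at -0.815.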
